A study of Homo sapiens with 43 samples.

Results

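A set of 10 genes of tumour necrosis factor (TNF) receptor signalling, 5 receptors and 5 cytoplasmic adaptors or inhibitors, was followed by RNA sequencing in 2 human cell lines. They were chosen by gene symbol, with earlier results of these data known, and found by Ensembl identifier. All 10 were among the 58780 Ensembl genes of each library: TNFRSF1A, TNFRSF1B, CD40, TNFRSF13B, TNFRSF13C, TRAF1, BIRC2, BIRC3, CFLAR and TNFAIP3. The study asked how inhibiting the BAF chromatin remodelling complexes affects transcriptional responses to stimuli, and comprised 43 libraries of polyadenylated RNA in 22 groups. Of these, 39 came from GM12878, a lymphoblastoid B cell line made with Epstein-Barr virus, and 4 from HepG2, derived from a hepatocellular carcinoma. In a stimulus panel, GM12878 cells received for 6 h either TNF at 25 ng/mL, 500 nM dexamethasone (Dex), 500 nM doxorubicin (Dox), interferon gamma (IFNg) at 100 ng/mL, lipopolysaccharide (LPS) at 10 ng/mL, interleukin 2 (IL2) at 50 U/mL or a vehicle, DMSO or PBS, with 1 library for Dox and 2 for each other group. In a pretreatment experiment, GM12878 cells were given 10 µM BRM014, an inhibitor of the BAF ATPases SMARCA4 and SMARCA2, or DMSO for 30 min before IFNg (100 ng/mL), Dex (500 nM) or vehicle (Veh) was added, and were collected 1 h or 6 h later (12 groups, 2 libraries per group). Times stated for the pretreatment experiment, also those of BRM014, count from the addition of stimulus or vehicle and leave out the 30 min before it. HepG2 cells were given 10 µM BRM014 or DMSO for 24 h, with 2 libraries each.

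Receptors of this family bind trimeric ligands and recruit TRAF adaptor proteins and the ubiquitin ligases BIRC2 and BIRC3, which leads to activation of NF-kB. NF-kB in turn induces genes that hold the pathway in check or block the caspase-8 arm of death signalling, among them TNFAIP3, CFLAR, TRAF1 and BIRC3 itself. In B cells, CD40 receives T cell help, and the products of TNFRSF13B (TACI) and TNFRSF13C (BAFF receptor) bind the survival factors BAFF and, for TACI, APRIL. Lymphoblastoid lines carry the viral protein LMP1, a CD40 mimic that keeps this pathway active without ligand.

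GM12878 libraries held 12.9 to 22.9 M counts and HepG2 libraries 3.06 to 19.9 M, the shallowest being BRM014 replicate 2. Whether replicates were separate cultures is not stated in the labels, so p-values measure only the spread between these libraries, which may be technical. The summed level of 6 B cell marker genes was 974.6 to 2041 CPM (counts scaled to a common library size) in GM12878 and 0.338 to 3.10 CPM in HepG2, where MS4A1 and PAX5 were at 0. The 6 hepatocyte markers summed to 0.928 to 2.65 CPM in GM12878 and to 15270 to 34440 CPM in HepG2. Each value measures a culture as a whole, in which fewer cells and less RNA per cell cannot be told apart. BRM014 blocks the activity and not the RNA of its targets, so their RNA does not check the labels: at 6 h in vehicle cells the log2 fold change ± SE was 0.29 ± 0.052 for SMARCA4 and -0.44 ± 0.045 for SMARCA2.

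Levels of different genes were compared per transcript length, as the deposited TPM (transcript abundance scaled for length and depth), over the 4 vehicle libraries of the panel. TRAF1 (180.8 ± 13.8 TPM, SD, n = 4) and TNFAIP3 (175.2 ± 8.37 TPM) stood highest, and their libraries overlapped. CFLAR followed at 157.4 ± 4.47 TPM, TNFRSF13B at 141.1 ± 10.7 TPM and CD40 at 140.2 ± 3.97 TPM. CFLAR overlapped with TNFRSF13B and TNFRSF13B with CD40, so the order within each of these pairs was not resolved. Below them, without overlap between neighbours, came BIRC3 (75.4 ± 3.37 TPM), TNFRSF13C (52.8 ± 3.29 TPM), TNFRSF1B (34.8 ± 1.19 TPM), BIRC2 (31.1 ± 1.46 TPM) and TNFRSF1A (12.8 ± 2.69 TPM). Of the TNF receptors proper, the widely expressed death domain receptor TNFRSF1A was therefore below the leukocyte receptor TNFRSF1B in every one of these libraries.

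Further levels, where not marked as TPM, are CPM scaled by trimmed mean of M values (TMM), which compare a gene across libraries and not one gene with another. TMM factors were estimated for each experiment apart, so spans that join panel and pretreatment groups are descriptive. Across the 20 GM12878 groups, BIRC3 had the widest range of group means, a 5.84-fold span. It ran from 129.7 CPM with Dox (1 library) to 757.3 CPM with BRM014 and Dex at 6 h. This rank rests on the Dox library, since the next lowest mean was 242.2 CPM, in DMSO vehicle cells at 1 h. From there its span would be narrower than that of TRAF1. TRAF1 spanned 5.00-fold, from 154.2 CPM with BRM014 and Dex at 6 h to 770.9 CPM with IFNg in the panel. BIRC2 varied least, between 57.8 and 85.4 CPM. The lowest group mean was a BRM014 group at 6 h for TNFRSF1B, CD40, TNFRSF13B, TNFRSF13C, TRAF1 and CFLAR.

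BIRC3 (chromosome 11, 102317484 to 102339403 on hg38, GENCODE 44), which encodes the ubiquitin ligase cIAP2, and TNFAIP3 (chromosome 6, 137867214 to 137883314), which encodes the deubiquitinase and NF-kB inhibitor A20, are known NF-kB targets, and both were called higher 1 h after Dex, as described below. Their promoter stretches upstream of the annotated starts are shown for that reason, from RefSeq, build GRCh38.p14, plus strand, 5′ to 3′, at chr11:102317234-102317483 and chr6:137867009-137867213, with matches to the NF-kB consensus on either strand in capitals.
BIRC3: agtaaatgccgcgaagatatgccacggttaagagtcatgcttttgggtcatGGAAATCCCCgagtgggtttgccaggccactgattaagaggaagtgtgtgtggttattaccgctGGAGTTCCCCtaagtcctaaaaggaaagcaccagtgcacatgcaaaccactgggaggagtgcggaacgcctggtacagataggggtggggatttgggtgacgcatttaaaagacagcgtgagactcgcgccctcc
TNFAIP3: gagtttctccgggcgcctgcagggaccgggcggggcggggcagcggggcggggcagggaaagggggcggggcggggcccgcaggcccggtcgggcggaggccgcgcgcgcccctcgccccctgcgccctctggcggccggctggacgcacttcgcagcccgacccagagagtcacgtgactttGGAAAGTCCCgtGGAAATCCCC
Of the 10 genes, 8 had entries in the RefSeq promoter table, with 14 windows of 250 bases before and 50 after a start, and CD40 and TNFRSF13C had none. The NF-kB consensus, searched on both strands, was in 3 of these 14 windows and in 5.91% of all 35116 windows (2075). BIRC3 carried it 199 and 135 bases before the RefSeq start, TNFAIP3 67 and 55 bases before, and a window of CFLAR 97 bases before (GGGGAATTCC). Distances for TNFAIP3 count from its RefSeq start, which lies downstream of the GENCODE start where the printed stretch ends. The same 10 bases, GGAAATCCCC, stood in both printed promoters, 199 and 55 bases before the RefSeq starts, and in 39 of all windows (0.111%). This word was searched after the sequences were seen, and each of its matches is also a match to the consensus. On both strands, the glucocorticoid receptor palindrome GNACANNNTGTNC was in none of the 14 windows (0.390% of all) and the gamma-activated site TTCNNNGAA in none (7.66% of all). The AP-1 pattern TGANTCA, searched with any base at its centre, was in 1, as TGAATCA at an alternative start of CFLAR (7.71% of all). These are matches of letters in short windows and not measured binding.

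**Figure D1:**
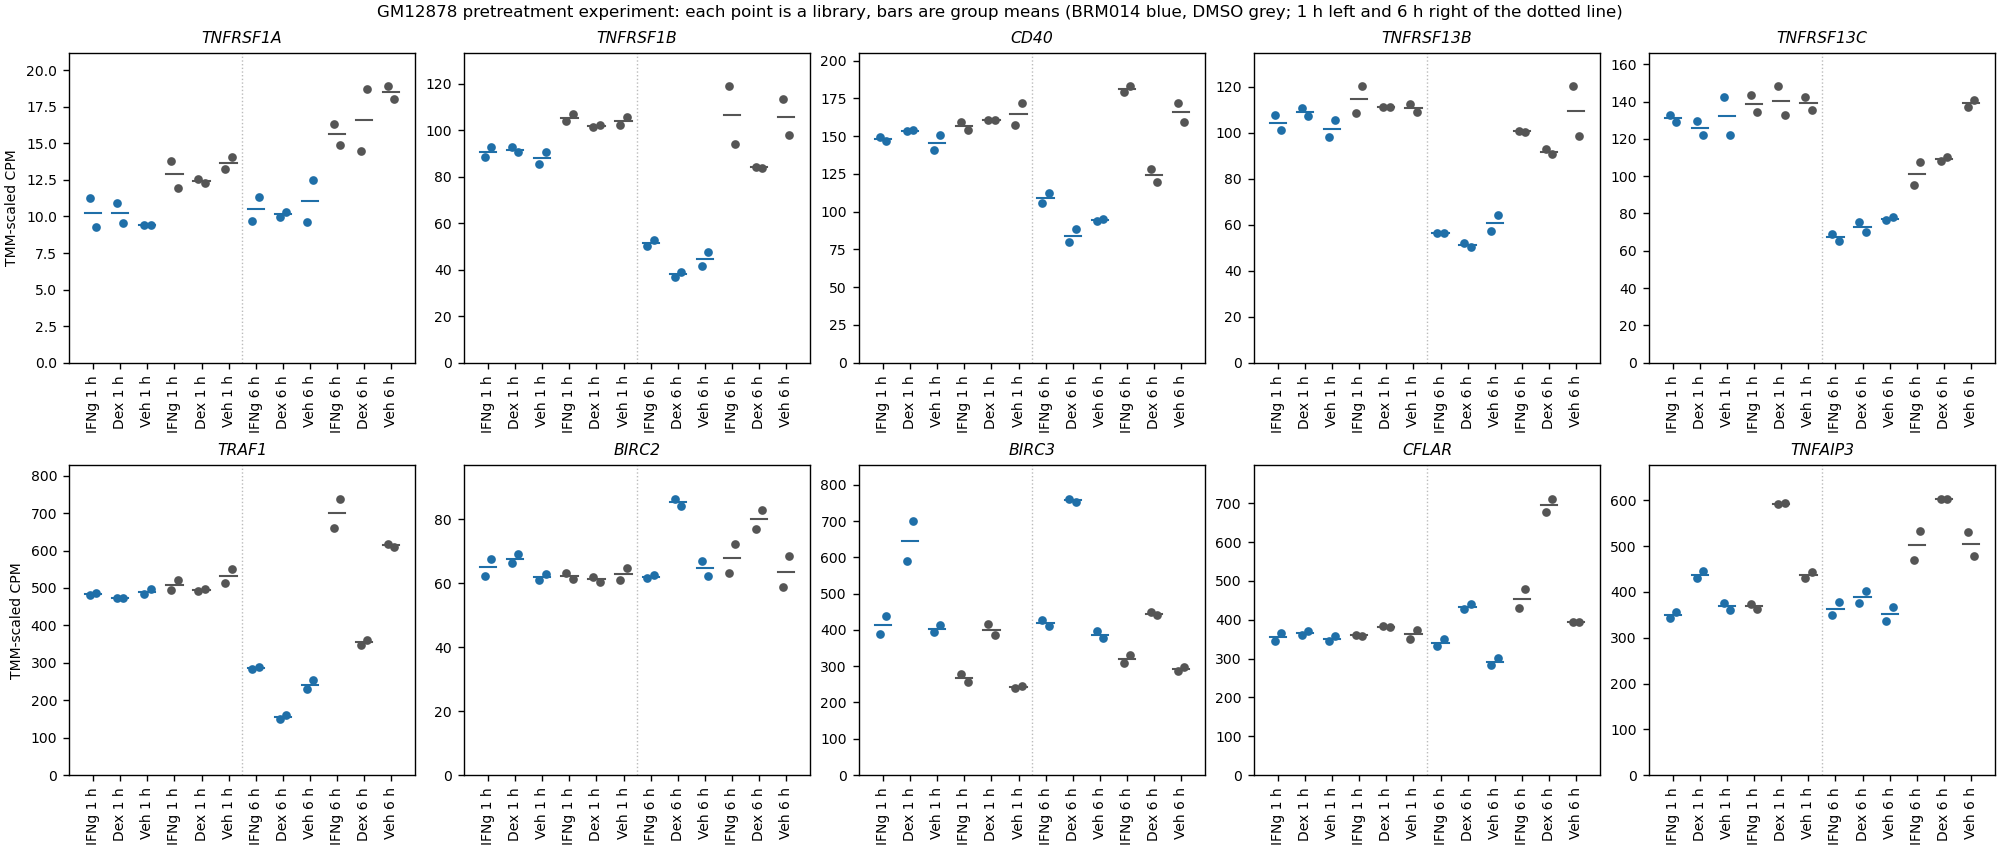
TMM-scaled CPM (vertical axes, linear, from 0) of the 10 genes in the 24 pretreatment libraries of GM12878, with BRM014 in blue and DMSO in grey. Each point is a library and each bar a group mean. At 6 h the blue points of the 5 receptors and TRAF1 lie below all grey points of that time, whereas those of BIRC3 lie above the grey points of the same stimulus.

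After 6 h of BRM014 in vehicle cells, all 5 receptor genes fell, 4 of them by 0.81 to 1.24 on the log2 scale, and of the other 5 genes TRAF1, TNFAIP3 and CFLAR fell, BIRC3 rose and BIRC2 did not pass the test (edgeR quasi-likelihood test with Benjamini-Hochberg adjustment over 15183 genes; n = 2 each). Of all genes tested, 38.5% were called in this comparison, 18.4% higher and 20.1% lower. The 10 genes had a median of -0.77, and all tested genes one of 0.006. Libraries of the 2 groups did not overlap for 9 of the 10 genes. In the same libraries 5 of 6 B cell markers fell, and their summed level was 1133 to 1142 CPM with BRM014, against 1887 to 1950 CPM with DMSO. Whether the change in these markers bears on the receptor genes was not tested.

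TNFRSF1B (chromosome 1, 12166991 to 12209228), the TNF receptor that lacks a death domain, had 41.5 and 47.7 CPM with BRM014 and 113.3 and 98.0 CPM with DMSO. Both inhibited libraries lay far below both control libraries, and the log2 fold change was -1.24 ± 0.085 (adjusted p = 6.23e-12). CD40 (chromosome 20, 46118271 to 46129863) had 93.9 and 95.2 CPM with BRM014, against 171.8 and 159.6 CPM with DMSO (-0.81 ± 0.058). The BAFF receptor gene TNFRSF13C (chromosome 22, 41922032 to 41926806) stood at 76.5 and 78.1 CPM with BRM014 and at 136.9 and 141 CPM with DMSO (-0.85 ± 0.069). Replicates of these genes lay close together relative to the gap between groups. TNFRSF13B, the TACI gene (chromosome 17, 16929816 to 16972118), had 57.5 and 64.5 CPM with BRM014 and a wider pair of 120.2 and 98.8 CPM with DMSO (-0.84 ± 0.072). TNFRSF1A (chromosome 12, 6328757 to 6342114), the lowest of the genes with 147 to 403 counts per GM12878 library, had 9.60 and 12.5 CPM with BRM014, against 18.9 and 18.1 CPM with DMSO (-0.73 ± 0.13, adjusted p = 4.37e-05).

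TRAF1 (chromosome 9, 120902393 to 120929173), an adaptor that binds TRAF2 and the cIAP ligases, showed the largest fall of the 10 genes. It had 228.9 and 253.5 CPM with BRM014 and 618.7 and 608.8 CPM with DMSO (-1.35 ± 0.055, adjusted p = 1.47e-18). TNFAIP3 stood at 337.1 and 368 CPM with BRM014, against 530.6 and 478.2 CPM with DMSO (-0.52 ± 0.058). CFLAR (chromosome 2, 201116154 to 201176687), whose product c-FLIP blocks caspase-8 activation at death receptors, had 284.1 and 300.5 CPM with BRM014, against 393.2 and 394.7 CPM with DMSO (-0.43 ± 0.052). As TPM, which is scaled for length but not by TMM, its fall was smaller, with 139.7 and 143.1 TPM with BRM014, against 160.2 and 159.1 TPM with DMSO. This was not particular to CFLAR: TNFRSF1B had 19.38 and 19.08 TPM with BRM014, against 39.65 and 35.62 TPM with DMSO. The groups did not overlap for any of these genes. BIRC3 went the other way, with 397 and 376.9 CPM in BRM014 cells and 286.6 and 298.9 CPM in DMSO cells (0.40 ± 0.067, adjusted p = 2.72e-05). Its neighbour on chromosome 11, BIRC2 (102347211 to 102378670), which encodes the related ligase cIAP1, had overlapping groups, 67.1 and 62.4 CPM with BRM014 and 58.7 and 68.6 CPM with DMSO (0.02 ± 0.072, adjusted p = 0.883). The estimated assignment of reads left no uncertainty for either gene: the posterior SD of their counts was 0 in all 39 GM12878 libraries.

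Fewer members were called at 1 h, and BIRC3 moved furthest. At 1 h in vehicle cells BRM014 was followed by a call for 3 of the 10 genes, against 2.05% of all tested genes, 0.599% higher and 1.46% lower; the medians were -0.12 and -0.001. BIRC3 had 394.6 and 412.4 CPM with BRM014 and 239.1 and 245.4 CPM with DMSO (0.74 ± 0.067, adjusted p = 6.51e-08). Its call held without each of the 4 libraries in turn. TNFRSF1A, with 9.39 and 9.40 CPM in BRM014 cells and 13.2 and 14.1 CPM in DMSO cells, fell by 0.54 (SE 0.14, adjusted p = 0.0333), and TNFAIP3, with 375.1 and 361.7 CPM, against 430.1 and 442.8 CPM, fell by 0.24 (SE 0.058, adjusted p = 0.0149). Both lost their calls without any one of the 4 libraries: adjusted p was 0.113 without DMSO replicate 1, 0.33 without DMSO replicate 2, 0.191 without BRM014 replicate 1 and 0.196 without BRM014 replicate 2 for TNFRSF1A, and 0.0692, 0.22, 0.0543 and 0.171 in that order for TNFAIP3. TNFRSF1A was not called by DESeq2 either (adjusted p = 0.101). TRAF1 was at 482.7 and 496 CPM with BRM014 and 513.1 and 549.7 CPM with DMSO, below its controls without passing the test (-0.12 ± 0.053, adjusted p = 0.458). B cell markers summed to 1887 to 1896 CPM with BRM014 and 1989 to 2017 CPM with DMSO, and none of the 6 was called.

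The same contrast was made in stimulated cells, which have their own DMSO libraries; these 4 comparisons were added after the data had been seen. At 6 h, 8 of the 10 genes fell and BIRC3 rose in IFNg cells, where 33.7% of all genes were called, and likewise in Dex cells, where 37.7% were. The medians of the 10 genes were -0.58 with IFNg and -0.66 with Dex, and that of all genes was 0.006 in each. TRAF1 had 282.1 and 289.8 CPM with BRM014 and IFNg, against 661.2 and 739.2 CPM with DMSO and IFNg (-1.29 ± 0.054). With Dex it had 149.1 and 159.2 CPM in BRM014 cells, against 348.7 and 360.1 CPM in DMSO cells (-1.20 ± 0.056). TNFRSF1B fell by 1.04 (SE 0.085) with IFNg and by 1.15 (SE 0.088) with Dex, and TNFRSF13B by 0.84 (SE 0.074) and 0.85 (SE 0.075). Vehicle cells had -1.24 and -0.84 for this pair, and differences between the states are given with the interactions below. In IFNg cells all 6 B cell markers fell, their sum being 1124 to 1125 CPM with BRM014, against 1653 to 1792 CPM with DMSO. In Dex cells 5 fell and PAX5 rose, with 974.6 to 977.7 CPM, against 1444 to 1451 CPM. BIRC2 was the gene not called, at -0.13 ± 0.073 with IFNg and 0.10 ± 0.070 with Dex. In IFNg cells, TNFRSF1A lost its call without BRM014 replicate 1 (adjusted p = 0.0508) and BIRC2 was called lower without DMSO replicate 1 (-0.22, adjusted p = 0.0407).

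At 1 h BIRC3 was called higher with BRM014 in both stimulated states, in IFNg cells by 0.63 ± 0.067 and in Dex cells by 0.69 ± 0.066 (adjusted p = 4.85e-07 and 8.67e-08; 2.20% and 1.91% of all genes were called). In Dex cells at 1 h the libraries were 590.4 and 701 CPM with BRM014, against 415 and 385 CPM with DMSO. TNFAIP3 fell in Dex cells at 1 h, with 430 and 445.8 CPM with BRM014 and 591.9 and 593.9 CPM with DMSO (-0.44 ± 0.058, adjusted p = 4.98e-06). In IFNg cells its libraries, 342.7 and 355.7 CPM with BRM014, lay just under those with DMSO, 374.5 and 363.8 CPM (-0.08 ± 0.058, adjusted p = 0.824). No other member was called at 1 h in stimulated cells.

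**Figure D2:**
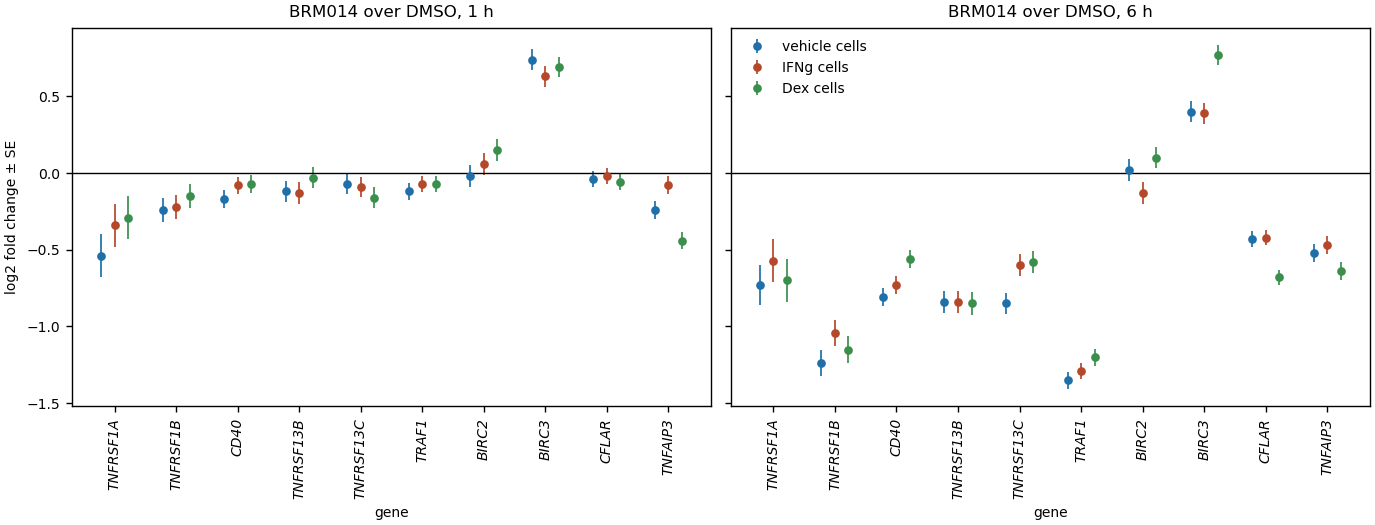
Log2 fold changes of BRM014 over DMSO (vertical axis; points are estimates and bars ± 1 SE from edgeR, 2 libraries a group) for the 10 genes at 1 h (left) and 6 h (right), in vehicle, IFNg and Dex cells. At 1 h BIRC3 stands alone between 0.63 and 0.74, and at 6 h the receptors and TRAF1 lie between -0.56 and -1.35.

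Dex, an agonist of the glucocorticoid receptor, divided the set. In the panel at 6 h, CFLAR, BIRC3, TNFAIP3 and BIRC2 rose, while TRAF1, TNFRSF1B, TNFRSF13C, CD40 and TNFRSF13B fell (n = 2 Dex and 4 vehicle libraries); 25.7% of all tested genes were called, 13.0% higher and 12.7% lower. In the DMSO arm of the pretreatment experiment, which shares no library with the panel, the same 9 genes were called the same way, where 15.6% of all genes were called, 8.06% higher and 7.53% lower. Medians of the 10 genes, -0.11 and -0.21, describe little here because members went both ways; those of all genes were -0.002 and 0.001. Of the 6 B cell markers, 5 fell in the panel and 4 in the DMSO arm. Their sums were 1436 to 1438 CPM with Dex, against 1850 to 1937 CPM with vehicle in the panel, and 1444 to 1451 CPM against 1887 to 1950 CPM in the DMSO arm. The part of this in the fall of the receptor genes was not tested.

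Among the receptors, CD40 had 130.8 and 134.6 CPM with Dex in the panel, against 154.3 to 170.7 CPM in the vehicles (-0.28 ± 0.042), and in the DMSO arm 128.1 and 119.9 CPM with Dex, against 171.8 and 159.6 CPM with vehicle (-0.41 ± 0.057). TNFRSF1B had 74.4 and 72.6 CPM with Dex in the panel, against 92.2 to 102.7 CPM (-0.39 ± 0.049), and TNFRSF13C 129.3 and 131.5 CPM, against 152.5 to 176.4 CPM (-0.31 ± 0.043). In each of these 3 genes every Dex library lay below every control. TNFRSF13B was less certain: its Dex libraries of 98.2 and 79.1 CPM overlapped the panel vehicles, 95.5 to 117.5 CPM (-0.24 ± 0.070, adjusted p = 0.0186). Its panel call was lost without Dex replicate 2 (-0.08, adjusted p = 0.447), DMSO replicate 2 (adjusted p = 0.0537) or PBS replicate 1 (adjusted p = 0.0526). It was also lost against DMSO alone (-0.15, adjusted p = 0.208) and with only the groups compared in the fit (adjusted p = 0.0836). In the DMSO arm (-0.25 ± 0.070, adjusted p = 0.0129) it was lost without vehicle replicate 1 (-0.10, adjusted p = 0.415), Dex replicate 1 (adjusted p = 0.0627) or Dex replicate 2 (adjusted p = 0.12). In that arm TNFRSF1B (-0.32 ± 0.080) also lost its call without vehicle replicate 1 (adjusted p = 0.11) or Dex replicate 2 (adjusted p = 0.0572). TNFRSF1A did not pass in either experiment (0.01 ± 0.11 and -0.16 ± 0.13).

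TRAF1 was the adaptor that fell with Dex, to 393.6 and 383.5 CPM in the panel, against 562.3 to 654.9 CPM in the vehicles (-0.64 ± 0.036), and to 348.7 and 360.1 CPM in the DMSO arm, against 618.7 and 608.8 CPM (-0.79 ± 0.054). CFLAR stood at 733.5 and 723.7 CPM with Dex in the panel, against 371.7 to 397.7 CPM, and at 677.8 and 712 CPM in the DMSO arm, against 393.2 and 394.7 CPM (0.82 ± 0.052). BIRC2 had 74.0 and 83.3 CPM in the panel, against 56.1 to 65.0 CPM (0.37 ± 0.053), and 77.0 and 83.1 CPM in the DMSO arm, against 58.7 and 68.6 CPM (0.32 ± 0.071). TNFAIP3 had 696.9 and 667.4 CPM with Dex in the panel, against 490 to 553.1 CPM (0.40 ± 0.036), and 604.3 and 602.8 CPM in the DMSO arm, against 530.6 and 478.2 CPM (0.26 ± 0.057). Dex libraries lay beyond all controls for these 4 genes in both experiments. In the DMSO arm BIRC2 lost its call without vehicle replicate 1 (0.22, adjusted p = 0.0621) and TNFAIP3 without vehicle replicate 2 (0.18, adjusted p = 0.0673).

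At 1 h in the DMSO arm, Dex raised BIRC3 and TNFAIP3 alone among the 10 genes, where 0.606% of all tested genes were called, 0.362% higher. BIRC3 had 415 and 385 CPM with Dex and 239.1 and 245.4 CPM with vehicle (0.72 ± 0.067, adjusted p = 7.46e-08), and TNFAIP3 had 591.9 and 593.9 CPM with Dex and 430.1 and 442.8 CPM with vehicle (0.44 ± 0.058, adjusted p = 6.69e-06). Both calls held without each of the 4 libraries in turn. CFLAR, so far from its controls at 6 h, was at 383.7 and 379.9 CPM with Dex and 350.4 and 374.5 CPM with vehicle at 1 h (0.08 ± 0.052, adjusted p = 1). The receptor genes lay between -0.14 and 0.01, and TRAF1 at -0.10 ± 0.053. The median was -0.01 for the 10 genes and 0.003 for all genes.

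**Figure D3:**
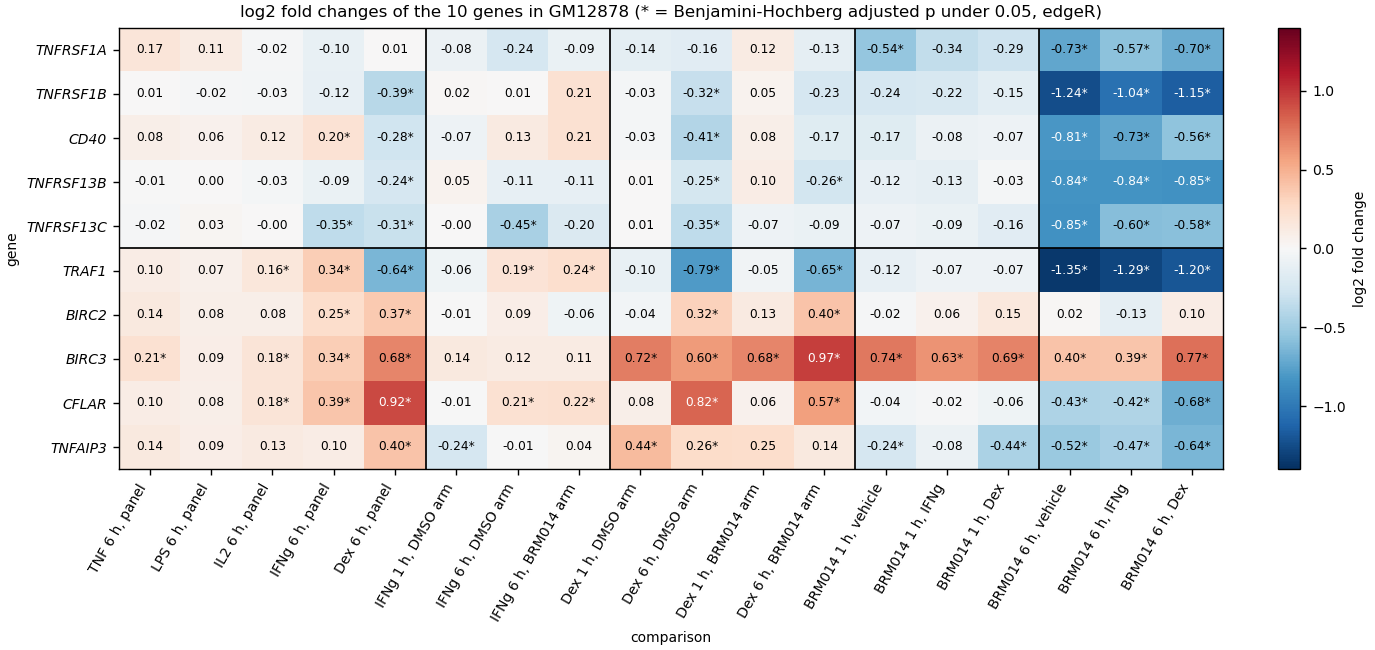
Log2 fold changes (colour and printed value) of the 10 genes (rows, receptors above the line) in 18 comparisons in GM12878 (columns), with a star at a Benjamini-Hochberg adjusted p under 0.05 in edgeR. Dex at 6 h in the panel and the DMSO arm shows starred falls in TRAF1 and the receptors other than TNFRSF1A. It shows starred rises in BIRC2, BIRC3, CFLAR and TNFAIP3. BRM014 at 6 h shows starred falls in all rows but BIRC2 and BIRC3.

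With BRM014 given first, Dex at 6 h raised BIRC3, CFLAR and BIRC2 and lowered TRAF1 and TNFRSF13B (7.77% of all genes were called, 3.67% higher and 4.10% lower; medians -0.11 and -0.003). The libraries of BIRC3 were 762 and 752.6 CPM with Dex, against 397 and 376.9 CPM with vehicle, both with BRM014 (0.97 ± 0.066, adjusted p = 4.86e-11). Those of CFLAR were 426.5 and 440 CPM, against 284.1 and 300.5 CPM (0.57 ± 0.052), and those of BIRC2 86.6 and 84.3 CPM, against 67.1 and 62.4 CPM (0.40 ± 0.071). BIRC3 thus reached its highest level of all groups where Dex and BRM014 were combined, whereas CFLAR with both agents stayed below both of its libraries with Dex alone. TNFRSF13B (-0.26 ± 0.077) lost its call without vehicle replicate 2 (adjusted p = 0.396), Dex replicate 1 (adjusted p = 0.0975) or Dex replicate 2 (adjusted p = 0.247).

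The test of the difference itself, the interaction of Dex and BRM014 at 6 h, called BIRC3 alone among the 10 genes, with 0.37 ± 0.093 (adjusted p = 0.0275; 2.76% of all genes were called; medians 0.09 and -0.006). This call was lost without either DMSO vehicle library (adjusted p = 0.0526 and 0.143 without replicates 1 and 2), either DMSO Dex library (0.0651 and 0.125), BRM014 vehicle replicate 2 (0.165) or either BRM014 Dex library (0.0831 and 0.062). CFLAR had an interaction of -0.25 ± 0.073 that did not pass (adjusted p = 0.0591). This interaction was called by DESeq2 (adjusted p = 0.0183). It was also called in edgeR with DESeq2 size factors (0.0416), without a filter (0.0413) and with a replicate block (0.0207). That of TRAF1 was 0.15 ± 0.077 (adjusted p = 0.493). At 1 h no member had a called interaction with Dex (0.119% of all genes were called; 538 genes and 1 member had an unadjusted p under 0.05, and DESeq2 called 0 members). BIRC3 then rose with Dex by 0.68 ± 0.066 in the BRM014 arm, where 0.277% of all genes were called, and by 0.72 ± 0.067 in the DMSO arm. TNFAIP3 rose by 0.25 ± 0.058 in the BRM014 arm without passing (adjusted p = 0.0571), and DESeq2 called it (adjusted p = 0.0111).

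IFNg, a cytokine that signals through JAK kinases, raised CFLAR, TRAF1, BIRC3, BIRC2 and CD40 and lowered TNFRSF13C in the panel at 6 h, where 11.9% of all genes were called, 7.11% higher and 4.75% lower. The medians were 0.15 and -0.008. Of the 6 B cell markers 3 fell and PAX5 rose, the sum being 1773 to 1785 CPM with IFNg, against 1850 to 1937 CPM with vehicle; their part in these results was not tested. In the DMSO arm, where 6.62% of all genes were called, 3.47% higher and 3.15% lower, 3 of these 6 genes were called the same way: CFLAR, TRAF1 and TNFRSF13C. There 3 B cell markers fell and none rose, with sums of 1653 to 1792 CPM with IFNg, against 1887 to 1950 CPM with vehicle; their part was not tested either. TNFRSF13C had 127.3 and 126.7 CPM with IFNg in the panel, against 152.5 to 176.4 CPM with vehicle (-0.35 ± 0.043, adjusted p = 1.59e-07), and 95.2 and 107.5 CPM in the DMSO arm, against 136.9 and 141 CPM (-0.45 ± 0.069, adjusted p = 2.95e-05). It was the member whose fall with IFNg was called in both experiments, and this call held without each library in turn. CD40 had 190.9 and 181.1 CPM with IFNg in the panel, against 154.3 to 170.7 CPM (0.20 ± 0.041), and in the DMSO arm 179.2 and 183.1 CPM, against 171.8 and 159.6 CPM (0.13 ± 0.056, adjusted p = 0.208). Against DMSO alone in the panel, BIRC2 lost its call in edgeR (0.18, adjusted p = 0.0659). TNFAIP3, not called against both vehicles, was called higher against DMSO alone (0.16, adjusted p = 0.0113) and by DESeq2 (0.11, adjusted p = 0.0231). The panel calls of CD40 and BIRC2 were lost without IFNg replicate 1 (adjusted p = 0.0661) and IFNg replicate 2 (adjusted p = 0.0789).

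TRAF1 reached its highest level with IFNg, 765.8 and 776 CPM in the panel, against 562.3 to 654.9 CPM (0.34 ± 0.035), and 661.2 and 739.2 CPM in the DMSO arm, against 618.7 and 608.8 CPM (0.19 ± 0.053). CFLAR had 493.5 and 514 CPM in the panel, against 371.7 to 397.7 CPM (0.39 ± 0.036), and 429.4 and 479.6 CPM in the DMSO arm, against 393.2 and 394.7 CPM (0.21 ± 0.052). In the DMSO arm the calls of TRAF1 and CFLAR were lost without IFNg replicate 2 (adjusted p = 0.32 and 0.215), vehicle replicate 1 (0.065 and 0.0552) or vehicle replicate 2 (0.13 and 0.055). With BRM014 given first, IFNg at 6 h raised the same pair, TRAF1 by 0.24 ± 0.055 and CFLAR by 0.22 ± 0.052 (1.77% of all genes were called; medians 0.08 and -0.014). Without BRM014 vehicle replicate 1 or BRM014 IFNg replicate 2 both calls were lost (adjusted p = 0.423 and 0.131 for TRAF1, 0.382 and 0.281 for CFLAR), and TRAF1 was lost without BRM014 IFNg replicate 1 (adjusted p = 0.0503). No member had a called interaction of IFNg and BRM014 at 6 h (0.198% of all genes were called; 1219 genes and 1 member had an unadjusted p under 0.05, and DESeq2 called 0 members). That of TNFRSF13C was 0.25 ± 0.10 (adjusted p = 0.486).

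At 1 h of IFNg in the DMSO arm TNFAIP3 was the member called, with 374.5 and 363.8 CPM, against 430.1 and 442.8 CPM with vehicle (-0.24 ± 0.058, adjusted p = 0.0457; 0.514% of all genes were called, 0.0790% lower), and it lost its call without any one of these libraries (adjusted p = 0.25 and 0.62 without IFNg replicates 1 and 2, 0.202 and 0.66 without vehicle replicates 1 and 2). In the BRM014 arm no member was called at 1 h, where 0.105% of all genes were; 448 genes and 0 members had an unadjusted p under 0.05 there, and DESeq2 called 0 members. No interaction was called for a member at 1 h (0.0659% of all genes; 442 genes and 0 members had an unadjusted p under 0.05, and DESeq2 called 0 members).

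**Figure D4:**
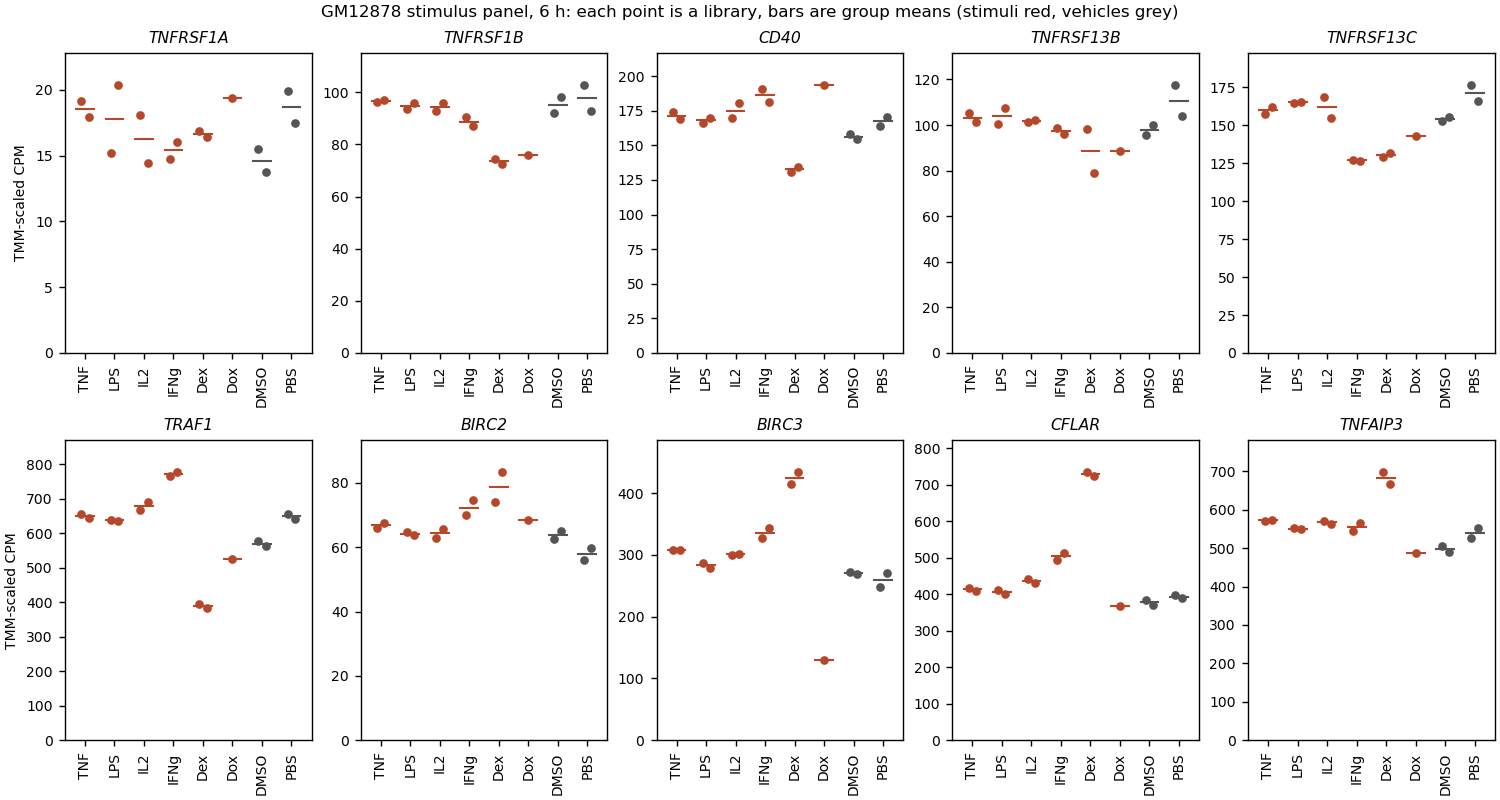
TMM-scaled CPM (vertical axes, linear, from 0) of the 10 genes in the 15 panel libraries of GM12878 at 6 h, with stimuli in red and the DMSO and PBS vehicles in grey. Each point is a library and each bar a group mean. Dex sets CFLAR and TRAF1 apart in opposite directions, and the Dox library of BIRC3 lies at 129.7 CPM, under all other libraries.

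With TNF, IL2 and LPS the fitted differences of the 10 genes were at most 0.21 on the log2 scale in either direction, and all panel comparisons share the same 4 vehicle libraries. TNF, the ligand of TNFRSF1A and TNFRSF1B, was followed by a call for BIRC3 alone, where 0.0190% of all genes were called. BIRC3 had 308.5 and 307.4 CPM with TNF and 248.9 to 272.5 CPM with vehicle. Its call was lost without DMSO replicate 1 or 2 (adjusted p = 0.173 and 0.134) or TNF replicate 1 or 2 (adjusted p = 0.599 and 0.935). It was also lost against DMSO alone (adjusted p = 0.0768) or PBS alone (adjusted p = 0.115) and with only the groups compared in the fit (adjusted p = 0.0642). TNFAIP3 had 570.9 and 574.2 CPM with TNF and 490 to 553.1 CPM with vehicle, with both TNF libraries above every control and no call against both vehicles (0.14 ± 0.036, adjusted p = 0.405). Against DMSO alone TNFAIP3 and TRAF1 were called higher (0.20 and 0.19, adjusted p = 0.0275 and 0.0297). The medians were 0.10 for the 10 genes and 0.000 for all genes.

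IL2 was followed by higher CFLAR (442.4 and 432.1 CPM), BIRC3 (300.7 and 301.8 CPM) and TRAF1 (666.7 and 691.3 CPM), by 0.16 to 0.18 on the log2 scale, where 0.203% of all genes were called, 0.197% higher and 0.00634% lower (medians 0.10 and -0.001). The vehicles had 371.7 to 397.7 CPM of CFLAR, 248.9 to 272.5 CPM of BIRC3 and 562.3 to 654.9 CPM of TRAF1. All 3 calls were lost without IL2 replicate 1, IL2 replicate 2 or DMSO replicate 2 (adjusted p = 0.407, 0.176 and 0.109 for CFLAR, 0.347, 0.573 and 0.142 for BIRC3, 0.168, 0.83 and 0.183 for TRAF1), and those of BIRC3 and TRAF1 also without DMSO replicate 1 (adjusted p = 0.0978 each). LPS gave no called gene in edgeR or DESeq2; 776 genes and 3 members had an unadjusted p under 0.05, and the medians were 0.07 and 0.000. The vehicles themselves differed in TRAF1, with 576.1 and 562.3 CPM in DMSO and 654.9 and 642 CPM in PBS (-0.19 ± 0.041, adjusted p = 0.0224; 0.437% of all genes were called), a call lost without DMSO replicate 1 (adjusted p = 0.21), DMSO replicate 2 (0.297) or PBS replicate 1 (0.164). With IL2, no member was called with only the groups compared in the fit or against PBS alone, where TRAF1 was at 0.07 (adjusted p = 0.994); against DMSO alone BIRC3 was lost (adjusted p = 0.132) and TNFAIP3 gained (adjusted p = 0.0221).

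Dox, a topoisomerase poison, was measured in 1 library and has no replicate check. BIRC3 had 129.7 CPM there (2655 counts; 95% Clopper-Pearson interval 124.8 to 134.7 CPM, covering counting error only), against 248.9 to 272.5 CPM in the vehicles, a log2 ratio of -1.03. It was the member past 1.5-fold, as were 3.02% of all genes tested. The others lay within 1.5-fold, between -0.34 (TNFRSF1B) and 0.26 (CD40), and the medians were -0.14 and -0.005.

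Between 1 h and 6 h the DMSO vehicle cells changed in 2 members, where 1.43% of all genes were called (medians 0.07 and -0.002). TRAF1 had 618.7 and 608.8 CPM at 6 h and 513.1 and 549.7 CPM at 1 h (0.21 ± 0.053, adjusted p = 0.0408), and BIRC3 286.6 and 298.9 CPM at 6 h and 239.1 and 245.4 CPM at 1 h (0.27 ± 0.067, adjusted p = 0.0394). Without vehicle replicates 1 and 2 at 1 h and replicates 1 and 2 at 6 h, taken in that order, adjusted p was 0.436, 0.116, 0.183 and 0.0965 for TRAF1 and 0.295, 0.177, 0.124 and 0.219 for BIRC3, so neither call held.

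Other genes of the pathway were counted in lists, which are read against the share of all genes called. After 6 h of BRM014 in vehicle cells, where 38.5% of all genes were called and 20.1% fell, 10 of 16 tested other receptors of the superfamily fell and none rose, and those with the smallest adjusted p were TNFRSF17, the BCMA gene (-1.11 ± 0.065), and CD27, a marker gene of memory B cells (-1.36 ± 0.091). All 4 tested ligand genes fell, among them LTA (-0.33 ± 0.058) and TNFSF13, which encodes APRIL (-0.59 ± 0.11). Of 22 receptor adaptors and ubiquitin enzymes 8 fell and 5 rose, with TNIP1, which encodes a partner of A20, at -0.88 ± 0.063 and CYLD, a deubiquitinase gene, at -0.68 ± 0.058. Of 12 genes of the IKK and NF-kB core 4 fell and 1 rose, near the share of all genes, and the inhibitor genes NFKBIA and NFKBIE had -0.84 ± 0.064 and -0.59 ± 0.074.

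With Dex in the panel, where 25.7% of all genes were called, 3 of the 4 ligand genes fell, LTA by 1.27 (SE 0.051) and TNF by 0.69 (SE 0.048), and 6 of 17 other receptors fell and 2 rose. The adaptor and ubiquitin list split evenly, 4 higher and 4 lower of 22, with TNIP2, a further A20 partner, at 0.64 ± 0.049 and CYLD at -0.35 ± 0.045. Of 12 IKK and NF-kB genes 6 fell, such as RELB and MAP3K14 (-0.45 ± 0.055 each), and 2 rose. With Dex at 6 h in the DMSO arm, where 15.6% of all genes were called, 3 of 4 ligand genes fell. Of 16 other receptors only 2 fell there and 0 rose. The adaptor list had 3 higher and 3 lower of 22 in that arm, and the IKK and NF-kB list 5 lower and 1 higher of 12. IFNg in the panel, where 11.9% of all genes were called, raised 3 of 4 ligand genes, among them TNF (0.54 ± 0.043), 7 of 22 adaptors, among them RBCK1 of the linear ubiquitin ligase (0.50 ± 0.044), and 6 of 12 IKK and NF-kB genes, among them NFKB1 (0.24 ± 0.039). TRAF5 fell among the adaptors, and of 17 other receptors 4 fell (CD27, TNFRSF10D, TNFRSF17 and TNFRSF8) and 2 rose (FAS and TNFRSF14), with a median of -0.16. In the DMSO arm at 6 h, where 6.62% of all genes were called, IFNg raised 1 of 12 IKK and NF-kB genes, MAP3K14. NFKB1 was not called there by edgeR (0.13 ± 0.05, adjusted p = 0.122). In that arm 3 of 22 adaptors and 2 of 4 ligand genes rose, and of 16 other receptors 2 fell and 2 rose. Under the interaction of Dex and BRM014 at 6 h (2.76% of all genes called) the first-ranked gene of the IKK and NF-kB list was MAP3K14, the kinase of the noncanonical pathway (0.34 ± 0.085, adjusted p = 0.0215), and LTA had 0.31 ± 0.087 (adjusted p = 0.0438).

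HepG2 cells held a different set of these genes, with the receptors of B cells close to 0. TNFRSF13B had 0 counts in all 4 libraries, which allows up to 0.0603 CPM at 3 counts over their summed depth. TNFRSF13C lay between 0.427 and 0.642 CPM and TNFRSF1B between 0 and 0.314 CPM, and these 3 genes were too low to test. TNFRSF1A, lowest of all in GM12878, was the most abundant member per transcript length in HepG2, with 93.7 and 89.5 TPM with BRM014 and 112 and 106.3 TPM with DMSO. CD40 had 9.43 and 8.79 CPM with BRM014 and 8.88 and 8.91 CPM with DMSO. Levels of the lines are set side by side without a test, since line, medium and experiment go together.

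After 24 h of BRM014 in HepG2, BIRC3 and BIRC2 rose and TNFAIP3 and CFLAR fell among the 7 members tested (n = 2 each); 42.1% of all genes were called, 19.3% higher and 22.7% lower, and the medians were 0.05 and -0.015. All 6 hepatocyte markers fell too, their sum being 15270 to 16300 CPM with BRM014, against 32060 to 34440 CPM with DMSO. Of the fibroblast markers COL1A1 and COL3A1 rose, the sum being 86.0 to 88.5 CPM with BRM014, against 8.67 to 11.1 CPM with DMSO, while COL1A2 and DCN were at 0 in all 4 libraries. Of the myeloid markers LYZ and CD14 fell, the sum being 1188 to 1193 CPM with BRM014, against 2876 to 2924 CPM with DMSO. LYZ, at 1187 to 2922 CPM over the 4 libraries, made up nearly all of this sum. CD14 lay between 0.58 and 1.95 CPM, and FCN1 and S100A8 were at 0 in all 4 libraries. The part of these markers in the results was not tested. BIRC3 had 7.11 and 8.16 CPM with BRM014 and 1.39 and 1.53 CPM with DMSO (2.33 ± 0.30, adjusted p = 8.41e-06), from a low level in both groups. BIRC2 had 100.7 and 93.8 CPM with BRM014 and 62.3 and 64.2 CPM with DMSO (0.63 ± 0.10). TNFAIP3 stood at 14.02 and 15.7 CPM with BRM014, against 48.0 and 54.6 CPM with DMSO (-1.83 ± 0.14, adjusted p = 2.33e-08). These 3 genes had groups far apart relative to their replicates. CFLAR had 62.4 and 55.2 CPM with BRM014, against 76.0 and 70.3 CPM with DMSO (-0.29 ± 0.11, adjusted p = 0.0437), but leaving out DMSO replicate 1 (adjusted p = 0.173), BRM014 replicate 1 (0.06) or BRM014 replicate 2 (0.212) ended the call, as did DESeq2 (0.133). Per transcript length CFLAR lay the other way round, at 49.7 and 49.6 TPM with BRM014, against 43.9 and 45.1 TPM with DMSO, so its direction depends on the scale. TRAF1 was at 2.08 and 3.14 CPM with BRM014 and 1.39 and 1.47 CPM with DMSO (0.71 ± 0.43, adjusted p = 0.197), and TNFRSF1A at 111.8 and 120.2 CPM with BRM014 and 130.0 and 129.2 CPM with DMSO (-0.17 ± 0.093, adjusted p = 0.161).

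**Figure D5:**
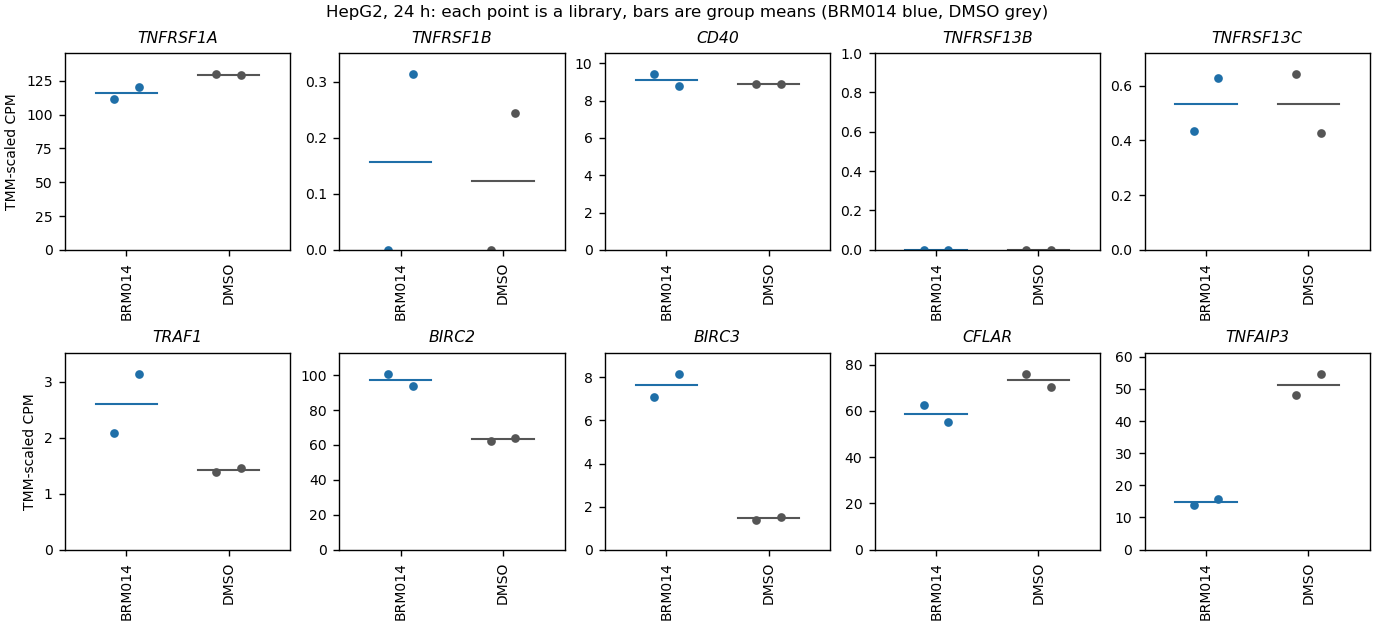
TMM-scaled CPM (vertical axes, linear, from 0) of the 10 genes in HepG2 after 24 h of BRM014 (blue, left) or DMSO (grey, right). Each point is a library and each bar the mean of 2. BIRC3 and BIRC2 are higher and TNFAIP3 is lower with BRM014, and TNFRSF13B is at 0 throughout.

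With BRM014, BIRC3 was called higher and TNFAIP3 lower in both lines, and CFLAR had the same sign in both on the CPM scale alone. TNFRSF1A, not called in HepG2, was lower in both lines. BIRC2 was called higher in HepG2 and was not called in GM12878. Its groups overlapped in GM12878 vehicle cells at 6 h, and its sign there differed from that in IFNg cells. Time and line differ, and no test of the difference was made. In the HepG2 lists, to be read against 42.1% of all genes called, 19.3% higher and 22.7% lower, 4 of 9 other receptors fell and 1 rose, 5 of 12 IKK and NF-kB genes rose and 1 fell, and MAP3K14 had 1.70 ± 0.16 and CHUK, the IKK alpha gene, 0.95 ± 0.12.

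As a description over the 12 pretreatment groups, which give every gene the same libraries, the genes whose mean log2(CPM + 1) followed each member most closely were listed among 10412 genes with at least 5 CPM. TRAF1 was most like IDH3A (Pearson r = 0.995) and LNPEP (0.993), and TNFRSF13B most like CLEC17A and SASH3 (0.996 each). CD40 was most like MX2 (0.992) and IFI44 (0.990), both interferon-induced genes, though CD40 itself was not called with IFNg in either arm. TNFRSF1B was most like ABI3 (0.995) and UBALD2 (0.994), and TNFRSF13C most like MYO18A (0.994) and TPST2 (0.993). The likeness was looser for BIRC3, nearest to FOXN2 (0.873) and ELOA (0.862), and for TNFAIP3, nearest to ZNF552 (0.884) and RAB20 (0.881). CFLAR was nearest to RBM38 (0.951) and to SMARCA2 (0.934), the gene of one of the inhibited ATPases. For TNFRSF1A the nearest were SIAH2 (0.972) and MOB3A (0.963), and for BIRC2 the nearest was PAOX (0.970). Ranked by Spearman correlation, the nearest pair shared no gene with these for 9 of the 10 members.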

How the data were processed

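RNA of 43 libraries was enriched for polyadenylated transcripts and sequenced as strand-marked pairs, per the labels' protocols. STAR, RSEM and the hg38 build are named by the submitters' processing notes; versions, settings and annotation are not given in the sources used here, nor whether counting used the strand. The authors deposited RSEM expected counts, TPM and the posterior SD of each count, another RSEM estimate, per the file headers. Identifiers without an Ensembl gene (746 of 59526, with 0 counts) were left out, and gene names are those of GENCODE 44.

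Expected counts were rounded and each experiment was fitted by itself in edgeR 4.0.16 (R 4.3.3; robust quasi-likelihood, TMM, filterByExpr with the groups), with 15775 genes in the panel, 15183 in the pretreatment experiment and 13350 in HepG2, and 7, 12 and 2 residual degrees of freedom. Calls were 2-sided, at 0.05 after Benjamini-Hochberg adjustment over all genes of the fit. The labels do not tie panel stimuli to a vehicle, so the average of both vehicle groups served as control. Dox ratios are of CPM plus 1. Replicate pairs differed by more than sampling noise (lowest chi-square per degree of freedom 2.52). Replicate numbers did not pair the libraries (correlations of deviations between -0.0943 and 0.0829). The fitting steps were tested on simulated data.

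All 10 genes are named; other lists give counts and at most 2 genes by adjusted p in the main comparisons. Members, lists and the NF-kB word were chosen with earlier results of these data known. Alternatives were DESeq2 1.42.0 (Wald test), its size factors in edgeR, no filter, a replicate block, a fit of only the groups compared, single vehicles and each library left out.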

Additional observations from a re-analysis of the deposited data

Results flagged for a closer look

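The response of BIRC3 to Dex at 6 h differed between the arms by the test of the interaction (0.37, larger with BRM014), a call that 7 of the 8 single-library omissions lost. A further 4 pairs of effects drew attention because every library of one comparison moved one way and every library of the other the opposite way; these differences were not tested. In the BRM014 arm, CD40 was at 0.08 with Dex at 1 h and -0.17 at 6 h, and TNFRSF13B at 0.10 at 1 h and -0.26 at 6 h. Of these values that of TNFRSF13B at 6 h was called. TRAF1 was at -1.35 with BRM014 after 6 h in GM12878 and at 0.71, not called, after 24 h in HepG2. TNFRSF1A was at 0.12 with Dex at 1 h in the BRM014 arm and at -0.14 in the DMSO arm, neither called.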

How the results depend on the processing

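Of 2665 recomputed fold changes of the 10 genes, 2538 stayed on their side of the threshold, 97 lost a call, 30 gained one and no called value changed sign. Among values called in neither fit, 159 had the other sign. Counts of called members that moved by more than 1.5 times, or to or from 0, come first. With only the groups compared in the fit they were 0 for TNF, IL2 and DMSO against PBS, 1 for IFNg at 6 h in the DMSO arm, 1 for vehicle time and 2 for BRM014 at 1 h in IFNg cells. TNF gave 2 against DMSO alone, TRAF1 and TNFAIP3 in place of BIRC3, and 0 against PBS alone, and IL2 0 against PBS alone. Without a filter, Dex at 1 h in the BRM014 arm and the Dex interaction at 6 h gave 2 each and vehicle time 4; DESeq2 gave 2 for the first and second, and DESeq2 size factors 2 for the interaction. The replicate block, whose numbers pair no libraries, gave 2 called members for each of these same 2 comparisons and 3 in place of 4 in HepG2, and left the count as it was in the other comparisons. Smaller moves were HepG2 at 3 in place of 4 without a filter and in DESeq2, BRM014 at 1 h in vehicle cells at 4 in place of 3 without a filter or with only the groups compared and at 2 in DESeq2, and Dex at 6 h in the BRM014 arm at 6 in place of 5 without a filter and 7 with only the groups compared. With only the groups compared, Dex at 6 h gave 8 in place of 9 in both experiments and IFNg at 6 h in the BRM014 arm 3 in place of 2. Dex in the panel also gave 8 against DMSO alone. DESeq2 gave 4 in place of 3 for IL2, 7 in place of 6 for IFNg in the panel and 3 in place of 2 for vehicle time.

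Leaving out 1 library at a time gave 0 to 1 called members for TNF, 0 to 3 for IL2, 5 to 8 for IFNg in the panel, 0 to 2 for DMSO against PBS, 0 to 0 for IFNg at 1 h and 1 to 3 at 6 h in the DMSO arm, 6 to 8 for Dex at 6 h in the DMSO arm, 0 to 2 for IFNg at 6 h in the BRM014 arm, 1 to 1 for BRM014 at 1 h, 0 to 1 for the Dex interaction at 6 h, 0 to 1 for vehicle time and 3 to 4 in HepG2. BRM014 at 6 h in vehicle cells gave 9 each time. Counts over all genes in the smaller comparisons moved more: TNF called 0 to 38 genes across settings in place of 3, and LPS 0 to 35 in place of 0. Against DMSO alone and PBS alone IL2 called 100 and 10 in place of 32. Without a filter the count was 73 for IL2, 137 for DMSO against PBS (69), 27 and 64 for IFNg (16) and Dex (42) at 1 h in the BRM014 arm, 31 and 84 for the IFNg interaction at 1 h (10) and 6 h (30), 38 for the Dex interaction at 1 h (18) and 360 for vehicle time (217). With only the groups compared it was 11 for DMSO against PBS, 128 and 349 for IFNg at 1 h (78) and 6 h (1005) and 162 for Dex at 1 h (92) in the DMSO arm, 470 for IFNg at 6 h in the BRM014 arm (269), 28 and 11 for the IFNg interactions and 75 for vehicle time, and DESeq2 gave 16 and 50 for the IFNg interactions. CPM without TMM moved group means by at most 5.81%. With 2 libraries a group, small changes are at the limit of what the tests resolve, and the 147 to 403 counts of TNFRSF1A limit that gene most. The cause of these shifts was not tested.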
